A study of Mus musculus with 8 samples.

Results

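The p53 module examined here holds 30 mouse genes: Trp53, which encodes p53, the genes that control p53, and genes that p53 is known to switch on. The genes were taken by name, all 30 were found among the 52224 genes of the table, and all 30 were tested. They were measured by RNA sequencing of mouse hematopoietic stem cells, taken from bone marrow and sorted by surface proteins as CD48-CD150+ cells of the LSK fraction (lineage marker negative, Sca-1 positive, Kit positive). There were 4 libraries from DekCon mice and 4 from DekTg mice. Both are genotype names of which the labels say nothing further: no promoter, expressing cell type, strain or age is stated. The series' title concerns DEK, a chromatin protein, and replication stress in Fanconi anemia, but neither group carries a Fanconi anemia genotype by its labels. The labels do not say whether the libraries came from separate mice, so the p-values measure only the spread between these samples.

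p53 is a transcription factor that is kept low in resting cells and accumulates after DNA damage or stalled replication. The ubiquitin ligase Mdm2 marks p53 for degradation and is itself a p53 target, so that the pair form a feedback loop, while Mdm4 blocks p53's activating domain. Its targets halt the cell cycle, repair DNA, limit oxidants or kill the cell, and in hematopoietic stem cells p53 is known for keeping the cells quiescent and for removing damaged ones. Because p53 is regulated largely at the protein level, RNA shows the level of its message and of its targets, not the amount of active p53.

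p53 binds DNA at a pair of adjoining elements of 10 bases each, called decamers. The promoter windows of RefSeq (build GRCm38.p6, 300 bases that lie mostly upstream of each transcript start) were searched for the p53 decamer consensus, a motif whose reverse complement is itself, so that 1 search covers both strands. A window was found for 23 of the 30 genes, that is, for all but Zmat3, Xpc, Ddb2, Rrm2b, Tnfrsf10b, Perp and Trp53inp1. The consensus was present in the windows of 10 of the 23 genes (43.5%), which are Trp53, Mdm2, Ppm1d, Rchy1, Ccng1, Gadd45a, Polk, Sesn1, Aen and Ei24. It was present for 9.55% of the 27025 genes with a window. A full site was taken as 2 decamers at most 1 base apart with at most 2 mismatches in all. The C and G in the core of each decamer had to match. Such a site was found for 1 of the 23, Ccng1, and for 0.807% of all genes with a window. Its second decamer in Ccng1 is the match already counted for that gene. The stretches that follow are from genes of the feedback loops on p53 (Trp53, Mdm2, Ppm1d and Ccng1), from Sesn1, and from Cdkn1a, the textbook p53 target, for comparison. They are written 5′ to 3′ in the direction of the gene, with the matching bases in capitals; those of Ccng1 and Cdkn1a show the full site, each with 1 mismatch. By GENCODE M21, the stretch of Sesn1 lies in an intron, upstream of an internal start, and the others lie upstream of the annotated gene.
Trp53, chr11:69580259-69580318, plus strand, 75 bases upstream of the start: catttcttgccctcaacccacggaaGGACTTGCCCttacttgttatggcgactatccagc
Mdm2, chr10:117710910-117710969, minus strand, 186 bases upstream: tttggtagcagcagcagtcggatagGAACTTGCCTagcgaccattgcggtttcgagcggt
Ppm1d, chr11:85311097-85311156, plus strand, 132 bases upstream: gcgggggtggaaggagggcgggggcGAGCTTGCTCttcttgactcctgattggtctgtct
Ccng1, chr11:40755437-40755506, minus strand, 195 bases upstream: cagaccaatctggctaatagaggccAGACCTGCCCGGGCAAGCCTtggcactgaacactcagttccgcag
Sesn1, chr10:41887241-41887300, plus strand, 173 bases upstream: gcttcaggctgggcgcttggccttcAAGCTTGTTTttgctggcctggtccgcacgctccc
Cdkn1a, chr17:29090903-29090972, plus strand, 51 bases upstream: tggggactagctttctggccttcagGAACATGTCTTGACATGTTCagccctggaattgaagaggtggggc
A match is a string of letters and was not tested as a binding site.

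The values are normalized read counts: read counts per gene divided by 1 scaling factor per library, so that they can be compared between libraries. Where genes are compared with each other they were also divided by the summed exon length and are given per kilobase. Reads counted on genes, as recovered from the values, numbered 2525884 to 4101132 per library, and 1 read was worth 0.772 to 1.27 units. In both groups, libraries 1 and 4 were more alike than any other pair (the spread between them was 1.5 to 1.58 times counting noise, against 2.47 to 4.89 for the other pairs within a group). Dek itself was 511 ± 100.1 in DekCon and 2392 ± 403 in DekTg (means ± SD of 4 libraries, as throughout; log2 difference 2.23, limma adjusted p = 1.14e-06), but its 4 DekTg values are not whole multiples of a read, whereas nearly all values of the table are. Their origin is not given in the sources used here. Of the 4 sort markers, Kit ranged over 1072 to 1396 in DekCon and 1181 to 1557 in DekTg, and Slamf1 (CD150) over 228 to 300.4 and 190.0 to 213. Slamf1 was the only one of the 4 whose groups did not overlap (log2 difference -0.40, limma adjusted p = 0.711). Ly6a (Sca-1) ranged over 110 to 248 and 178 to 247. Cd48, whose protein was sorted against, was present as RNA at 128 to 259 and 174 to 230.0. In bulk RNA, fewer cells of a type and less RNA per cell cannot be told apart.

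None of the 30 p53 genes passed the test between DekTg and DekCon. The test was limma on log2(value + 1) over 37414 genes with Benjamini-Hochberg adjustment and a threshold of 0.05, by which 13 genes (0.0347%) were called in all. No p53 gene reached an unadjusted p under 0.05 either, a level that 6.93% of the genes tested reached, and for no p53 gene did the 2 groups' values fail to overlap, as they did for 3.97% of all genes. Under each alternative setting, 0 to 2 of the 30 had an unadjusted p under 0.05. Of all genes tested, the fewest reached that level with DESeq2 (1624 of 37409). The most did so by limma with library quality weights (3250 of 37414). Over the alternatives together, 6 different p53 genes reached it in at least 1 (Btg2, Pidd1, Ppm1d, Gadd45a, Aen and Perp). The share of all genes that did so in at least 1 was not computed, so these 6 are not a result about the p53 genes. In the limma test above, the smallest unadjusted p of a p53 gene was 0.072, for Btg2 (adjusted p = 0.735). Run on the recovered reads, edgeR called 9 genes and DESeq2 16, again with none of the 30. In log2 difference, DekTg minus DekCon, 12 genes lay above 0 and 18 below, with a median of -0.07 and a range from -0.55 (Gadd45a) to 0.70 (Perp). The median of all genes tested was 0.01, and that of all genes with a mean value of at least 50 was -0.08, with 35.4% of them above 0; the 21 p53 genes at or above that level had a median of -0.05.

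**Figure D1:**
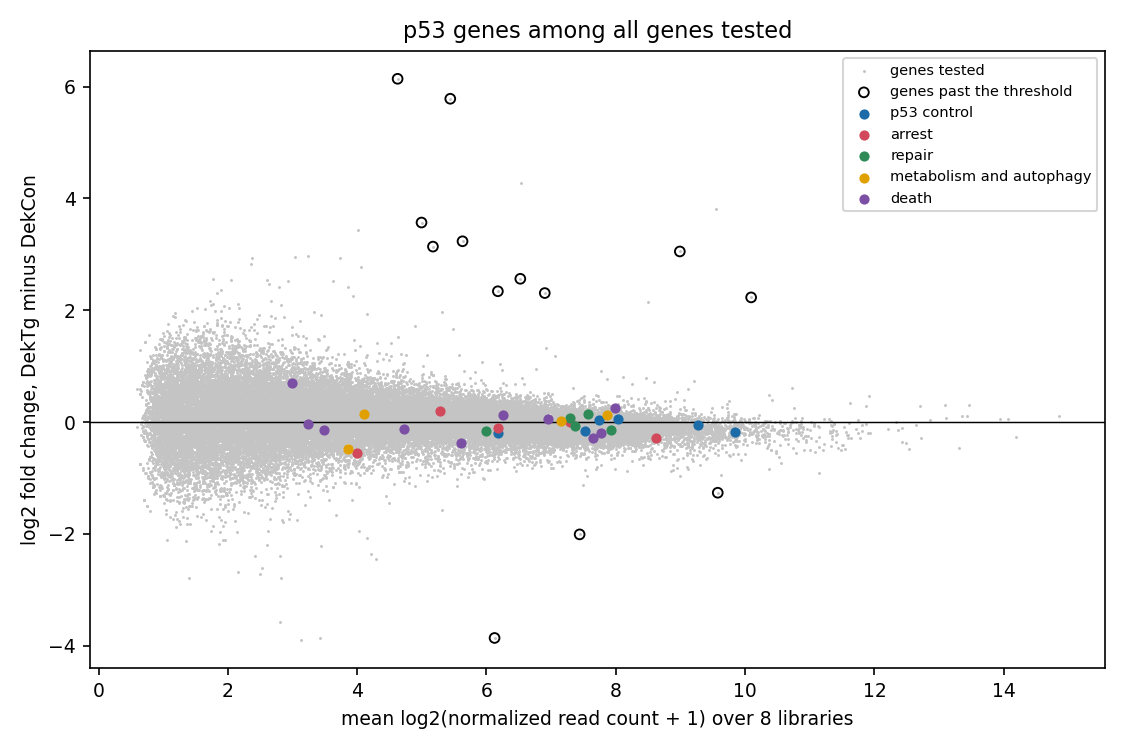
Mean of log2(normalized read count + 1) over the 8 libraries against the log2 difference, DekTg minus DekCon, for every gene tested (grey) and for the 30 p53 genes (coloured by role). Rings mark the 13 genes past the threshold. The p53 genes lie between -0.55 and 0.70 and none is ringed.

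What the data could and could not resolve is given by the 95% intervals of the differences. All 30 intervals included 0. For 26 of the 30 genes the whole interval lay within a 2-fold change in either direction, and for 16 it lay within 1.5-fold. The 4 whose intervals reached past 2-fold were Gadd45a, Dram1, Perp and Phlda3, all with few reads. Standard errors ran from 0.12 to 0.55 with a median of 0.17 on the log2 scale, and the lowest single measurement of any p53 gene was 1 read (Phlda3 in DekTg 2).

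**Figure D2:**
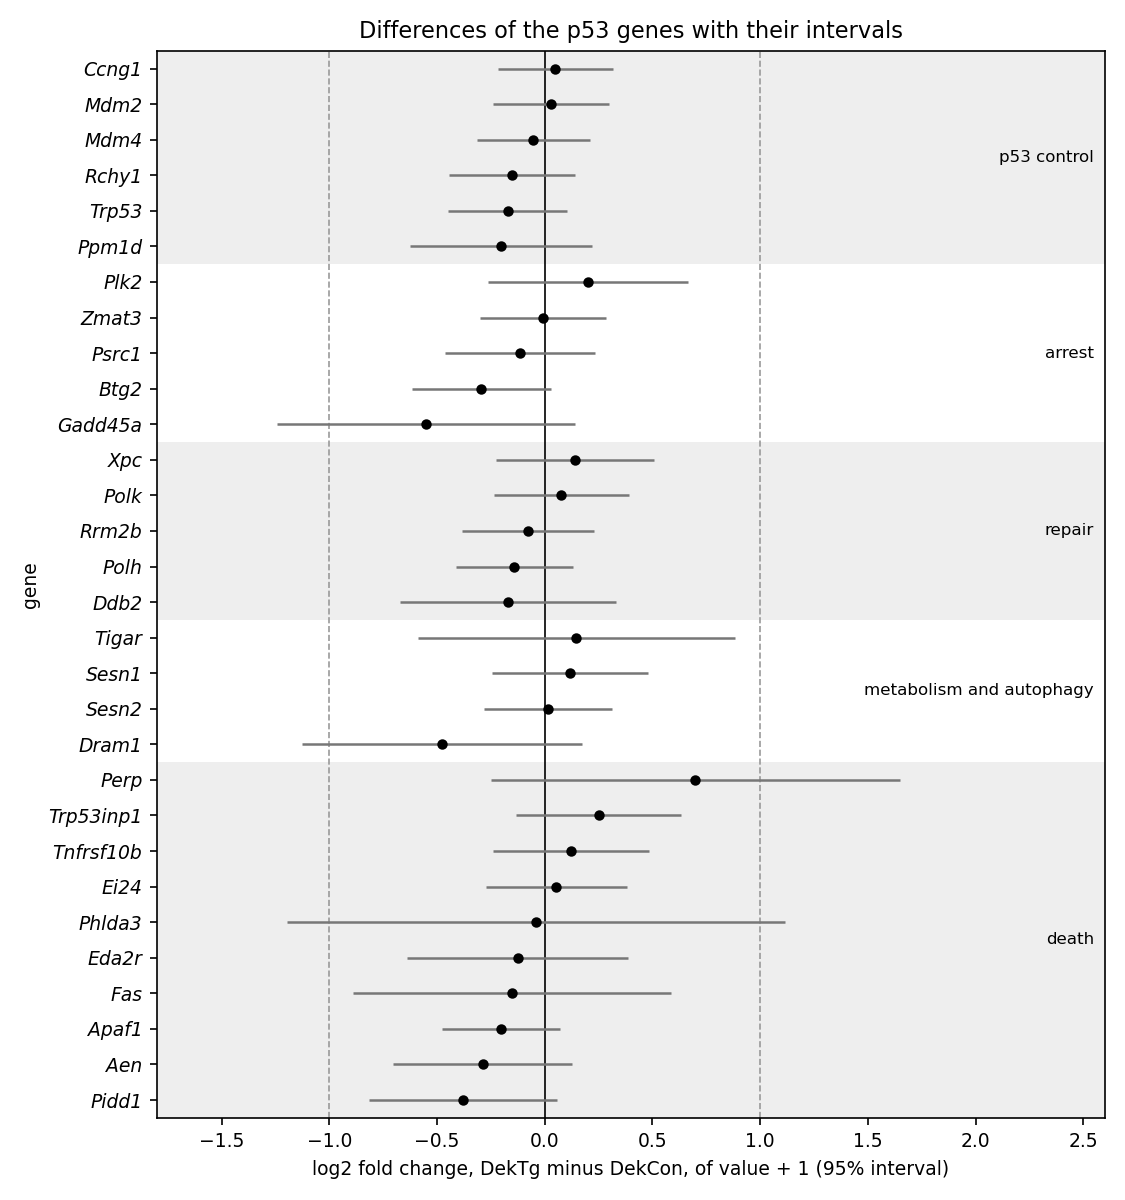
Log2 difference between DekTg and DekCon (points) with its 95% limma interval (bars) for the 30 p53 genes, ordered by role; the dashed lines mark a 2-fold change each way. Every interval crosses 0, and only those of Gadd45a, Dram1, Perp and Phlda3 pass a dashed line.

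Per kilobase of exon, Trp53 had the highest level of the 30 genes, 243 ± 43.2 in DekCon and 214 ± 13.9 in DekTg (normalized reads per kilobase). Btg2 came next at 159.9 ± 22.8 and 132 ± 27.7, followed by Ccng1 at 73.6 ± 6.89 and 76.2 ± 7.43, and the values per kilobase of these 3 genes did not overlap in any library. Mdm2 (41.8 over the 8 libraries) and Mdm4 (41.7), the 2 main inhibitors of p53, stood next to each other in the order of levels per kilobase, and their group means differed by less than the SD of either. The same held for the neighbours Polh (40.9) and Sesn2 (40.8). The order depends on the exon length, which joins the exons of all annotated transcripts, whether expressed here or not. It was 5.08 kilobases for Mdm2 and 14.8 for Mdm4, whose undivided values averaged 213 and 617. At the low end were Tigar (4.7), Dram1 (4.57), Eda2r (4.36) and Perp (4.02). Of these, only Eda2r and Perp differed between neighbours by more than the larger SD, and they did so in DekCon (4.55 ± 0.866 against 2.76 ± 0.827) but not in DekTg (4.16 ± 0.747 against 5.28 ± 2.47).

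Trp53 lies on chromosome 11, 69580359 to 69591873 (GRCm38, plus strand). Its values were 889, 1246, 919 and 886 in DekCon 1 to 4 and 808, 914, 828 and 914 in DekTg 1 to 4. DekCon 2 stood above all the others, and the remaining 7 libraries overlapped. The group means were 985 ± 175 and 866 ± 56.3, a log2 difference of -0.17 (SE 0.13, 95% interval -0.45 to 0.10, limma adjusted p = 0.812). Permuting the 8 libraries exactly gave a two-sided p of 0.229, where the smallest possible is 0.0286. The interval corresponds to a DekTg level of 0.733 to 1.07 times the DekCon level.

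Mdm2 (chromosome 10, 117688875 to 117710758, minus strand), the ubiquitin ligase that degrades p53, had values of 195, 228, 199.8 and 218 in DekCon and 196, 241, 221 and 202 in DekTg. The groups were interleaved, with means of 210.3 ± 15.4 and 215 ± 20.6. The log2 difference was 0.03 (SE 0.13, 95% interval -0.24 to 0.30, limma adjusted p = 0.974), which corresponds to a DekTg level of 0.848 to 1.23 times that of DekCon. Mdm4 (chromosome 1, 132959484 to 133030561, minus strand), which binds p53 and holds it inactive, was at 650.3, 689.9, 601 and 569.6 in DekCon and 527, 697, 628 and 576 in DekTg. Both the lowest and the highest Mdm4 values were DekTg libraries (1 and 2), and the log2 difference was -0.05 (SE 0.12, 95% interval -0.31 to 0.21, limma adjusted p = 0.948). Within a library, the ratio of the Mdm2 value to the Trp53 value, not scaled for length, was 0.217 ± 0.026 in DekCon (0.183 to 0.247) and 0.249 ± 0.022 in DekTg (0.220 to 0.267), and the groups overlapped.

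The other 3 control genes did not pass the test either. Ppm1d encodes the phosphatase Wip1, which reverses the phosphorylation that activates p53, and averaged 79 ± 19 in DekCon and 67.4 ± 11.1 in DekTg (log2 difference -0.20). Rchy1, which encodes the p53 ubiquitin ligase Pirh2, averaged 194 ± 22.8 and 175 ± 19.7 (-0.15). Ccng1, cyclin G1, a p53 target that acts back on Mdm2 and carries the full site shown above, averaged 259 ± 24.2 and 268 ± 26.1 (0.05). Over the 6 control genes the median log2 difference was -0.10, with 2 above 0 and none past the threshold.

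**Figure D3:**
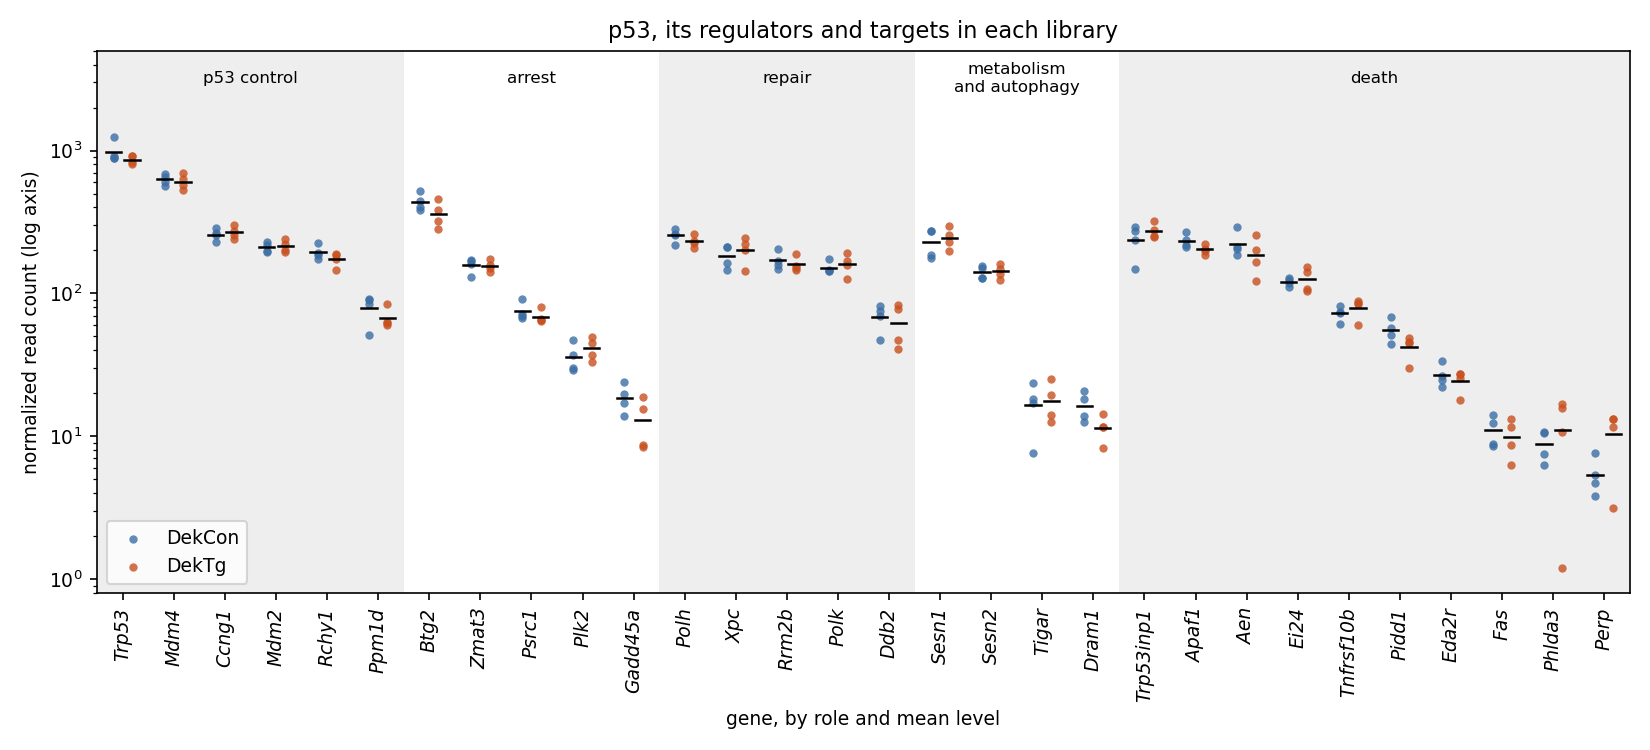
Normalized read count (log axis) of the 30 p53 genes in each of the 8 libraries, DekCon and DekTg side by side for each gene; points are libraries and short bars are group means. The points of the 2 groups overlap for every gene.

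Among the 5 arrest genes, Btg2, which encodes a growth-inhibiting protein that promotes mRNA decay, gave the most reads and the smallest p. It lies on chromosome 1, 134075170 to 134079120 (minus strand). Its values were 384, 524, 444 and 402 in DekCon and 282, 456, 382 and 322 in DekTg. DekTg 1, 3 and 4 lay below every DekCon library, while DekTg 2 lay above all but 1 of them. The means were 439 ± 62.4 and 361 ± 76, a log2 difference of -0.29 (SE 0.15, 95% interval -0.62 to 0.03, limma adjusted p = 0.735). Gadd45a, a stress sensor that holds cells at G2/M, had few reads in both groups, 18.7 ± 4.24 in DekCon and 12.9 ± 5.22 in DekTg, with a log2 difference of -0.55 (95% interval -1.24 to 0.14). Plk2, a stress-inducible kinase, averaged 35.9 ± 8.28 and 41.2 ± 7.45 (0.20). Psrc1, a microtubule-binding protein, averaged 74.9 ± 10.8 and 68.9 ± 7.94 (-0.11). Zmat3, an RNA-binding protein and p53 target, averaged 158 ± 18.7 and 156 ± 14.5, the difference nearest to 0 in its group (-0.01). The 5 genes had a median of -0.11 with 1 above 0 (Plk2).

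Of the 5 repair genes, Polh, which encodes the translesion polymerase eta, gave the most reads and the smallest p of its group (chromosome 17, 46171355 to 46202645, minus strand). It was at 259, 261, 283 and 220.0 in DekCon and 209, 261, 224 and 233 in DekTg. DekTg 1 lay below every DekCon library and DekCon 3 was the highest, while the ranges overlapped between these, and the log2 difference was -0.14 (SE 0.13, 95% interval -0.41 to 0.13, limma adjusted p = 0.842). Polk, translesion polymerase kappa, averaged 152 ± 15.2 in DekCon and 161 ± 26.6 in DekTg (0.08). The nucleotide excision repair genes, which encode sensors of damaged DNA, lay on either side of 0: Xpc averaged 183 ± 33.9 and 203 ± 42.8 (0.14), and Ddb2 68.2 ± 14.8 and 62.1 ± 21.2 (-0.17). Rrm2b, the p53-inducible subunit of ribonucleotide reductase, which supplies nucleotides for repair, averaged 170.1 ± 25.2 and 161 ± 20.1 (-0.08). The median of the group was -0.08, with 2 of 5 above 0.

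In the group of metabolism and autophagy, Sesn1 (chromosome 10, 41809935 to 41908424, plus strand) gave the most reads. Its product, sestrin 1, lowers oxidants and restrains mTORC1 signalling. Its values were 275, 177, 185 and 274 in DekCon and 227, 295, 255 and 199 in DekTg. DekCon 1 and 4 were near 275, while DekCon 2 and 3 were the lowest of all 8, so the spread within DekCon was wider than the distance between the means of 228 ± 54.2 and 244 ± 41. The log2 difference was 0.12 (SE 0.17, 95% interval -0.24 to 0.48, limma adjusted p = 0.909). Its relative Sesn2 averaged 141 ± 14 and 143 ± 15.9 (0.01).

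Dram1 (chromosome 10, 88322804 to 88379080, minus strand), a lysosomal membrane protein linked to autophagy, had few reads, at 12.7, 18.2, 20.7 and 13.9 in DekCon and 8.24, 14.4, 11.6 and 11.5 in DekTg. DekTg 2 was the one DekTg library inside the DekCon range. The means were 16.4 ± 3.74 and 11.5 ± 2.52, a log2 difference of -0.48 (SE 0.31, 95% interval -1.13 to 0.17, limma adjusted p = 0.781). Tigar, which turns glucose away from glycolysis, averaged 16.6 ± 6.63 and 17.8 ± 5.75 (0.15). Of these 4 genes 3 lay above 0, with a median of 0.07.

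Of the 10 death genes, the most reads came from Trp53inp1, a stress protein that acts with p53 in cell death and autophagy. Its values were 293, 148, 236 and 276 in DekCon and 249.7, 321, 279 and 254 in DekTg. DekCon 2 was the lowest and DekTg 2 the highest, and DekCon 1 and 4 lay within the DekTg range. The means were 238 ± 64.5 and 276 ± 32.5, a log2 difference of 0.25 (SE 0.18, 95% interval -0.13 to 0.63, limma adjusted p = 0.802). Pidd1, the scaffold that activates caspase 2, had the smallest p of the group, with 44.4, 67.9, 50.9 and 57.1 in DekCon and 48.6, 30.03, 45.6 and 45.1 in DekTg. DekTg 2 was the lowest library, and DekTg 1, 3 and 4 lay just above the lowest DekCon value. Its means were 55.1 ± 10.03 and 42.4 ± 8.36 (log2 difference -0.38, SE 0.21, 95% interval -0.81 to 0.06, limma adjusted p = 0.749).

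For the 3 death receptors the group means differed by less than the SD of either group. Fas, the receptor for Fas ligand, averaged 11 ± 2.7 in DekCon and 9.95 ± 3.05 in DekTg (-0.15 in log2 difference). Tnfrsf10b, the mouse receptor for TRAIL, averaged 72.6 ± 8.29 and 79.6 ± 13.2 (0.12). Eda2r, the receptor for ectodysplasin A2, averaged 26.8 ± 5.1 and 24.5 ± 4.4 (-0.13). Inside the cell, Apaf1, which forms the apoptosome, averaged 234 ± 26.4 and 203 ± 15.1 (-0.20), and the nuclease Aen 223 ± 46.4 and 186 ± 56.3 (-0.29). Ei24, a membrane protein of the endoplasmic reticulum, averaged 120.4 ± 7.78 and 126 ± 24.2 (0.05).

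Perp, a desmosome protein that p53 induces in dying cells, had the largest log2 difference of the 30 and few reads. It ranged over 3.83 to 7.61 in DekCon and 3.15 to 13.2 in DekTg, where DekTg 4 was the lowest of all 8 libraries and DekTg 1 to 3 were the highest. The log2 difference was 0.70 (95% interval -0.25 to 1.65, limma adjusted p = 0.781). Phlda3, which restrains Akt, ranged over 6.34 to 10.8 in DekCon and 1.2 to 16.8 in DekTg, with the widest interval of the 30 (-1.20 to 1.12). Its mean was higher in DekTg (11.1 ± 7.1 against 8.8 ± 2.21) while its log2 difference was -0.04, since the lone read in DekTg 2 weighs more on the log scale. The median over the 10 death genes was -0.08, with 4 above 0.

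DekTg 2 was the highest library for 10 of the 30 genes, Mdm2, Mdm4 and Trp53inp1 among them, and the lowest for 8, Pidd1, Aen and Phlda3 among them. DekCon 2 was the highest for 9 genes, including Trp53, Btg2 and Pidd1, and the lowest for 2. DekTg 1 was the lowest for 8 genes, Trp53, Mdm4 and Btg2 among them, and DekTg 4 for 6. Over genes at 10 or more in 4 or more libraries, log2 values of DekTg 2 and DekCon 2 correlated least with the other libraries. Their mean correlations were 0.933 and 0.937, against 0.946 to 0.953 for the rest. How often each library was the extreme over all genes was not computed. Without DekTg 2 the groups did not overlap for 3 of the 30 genes, Btg2, Dram1 and Tnfrsf10b, against 9.28% of all genes tested, and the smallest limma adjusted p was 0.474 (Btg2). Without DekCon 2 they overlapped for all 30, where 6.23% of all genes tested did not. The 30 genes together made up 0.164 ± 0.0013% of the summed values in DekCon (0.163 to 0.165%; 4 libraries) and 0.165 ± 0.0041% in DekTg (0.1595 to 0.168%), so their summed share overlapped between the groups. The 10 genes with a decamer match in their promoter window had a median log2 difference of -0.06, with 5 above 0, and the 13 without one had -0.13, with 3 above 0.

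**Figure D4:**
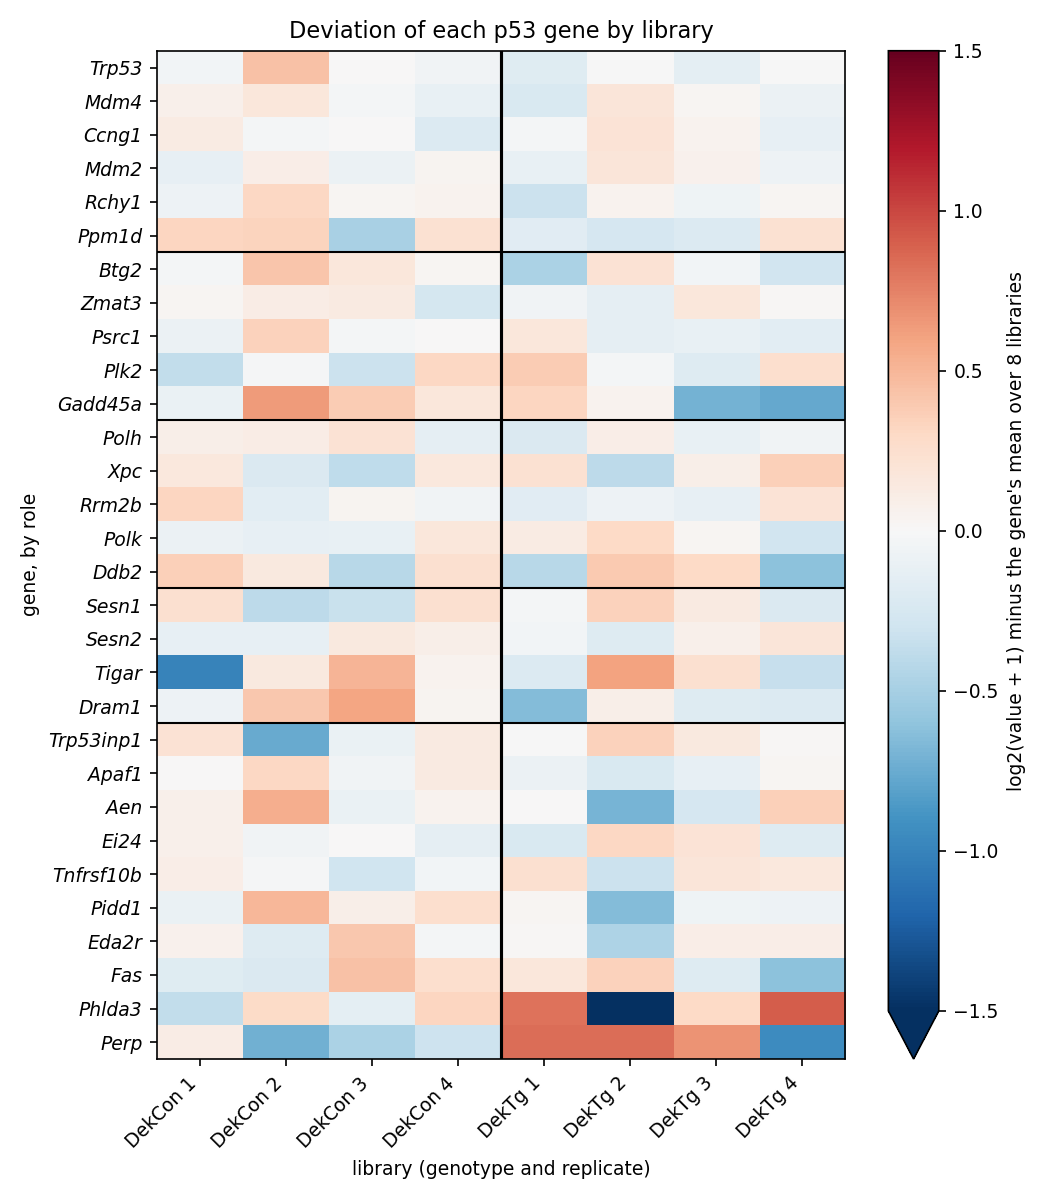
Log2 deviation of each of the 30 p53 genes (rows, by role) in each of the 8 libraries (columns) from the gene's mean over the libraries; red is above the mean, blue below, and the colour scale stops at 1.5 each way. DekTg 2 holds the highest value of 10 rows and the lowest of 8, and the deepest blue is Phlda3 in DekTg 2.

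Genes of the pathway outside the 30 were read from 2 lists. Of 16 other p53 targets, none passed the threshold, 6 lay above 0 and 10 below, and the median was -0.29; 4 of the 16 (Pmaip1, Tap1, Triap1 and Dcxr) had an unadjusted p under 0.05, as did 6.93% of all genes. Tap1 was 355, 854, 320.4 and 359 in DekCon and 294, 235, 279 and 377 in DekTg, so that DekCon 2 stood far above the rest, and without DekCon 2 its log2 difference went from -0.56 to -0.24 (unadjusted limma p 0.128). Of 19 other regulators tested, none passed the threshold, 7 lay above 0 and 12 below, and the median was -0.08. Of the 19, 1 (Hipk2) had an unadjusted p under 0.05. DekCon 2 was also the highest library for Triap1, Dcxr and Hipk2. Without it their unadjusted limma p was 0.0593, 0.132 and 0.0785, with log2 differences of -0.45, -0.47 and -0.27. That of Pmaip1 was then 0.00201 (limma adjusted p = 0.790). Cdkn1a, the cell cycle inhibitor p21 and the target most used to read p53 activity, was 95.6 ± 30.4 in DekCon (67.8 to 123) and 75.9 ± 8.92 in DekTg (67 to 88.2), a log2 difference of -0.28 (SE 0.20, limma adjusted p = 0.803). DekCon 1 and 4 were at 120 and 123, while DekCon 2 and 3, at 70.8 and 67.8, lay within the DekTg range. The pro-apoptotic Bax was 102 ± 20.3 and 90.7 ± 41.9 (-0.29), and Bbc3, which encodes Puma, 12 ± 7.42 and 13.4 ± 4.87 (0.22). Pmaip1, which encodes the pro-apoptotic protein Noxa, was the one target of the list whose groups did not overlap, at 20.3, 34.4, 23.6 and 23.9 in DekCon and 37.1, 45.6, 37.8 and 42 in DekTg. Its log2 difference was 0.67 (SE 0.22), with a limma adjusted p of 0.711. Among the regulators, the groups did not overlap for Hipk2, a kinase that phosphorylates p53, at 266, 342, 251 and 285 in DekCon and 238, 172, 243 and 240.4 in DekTg (log2 difference -0.36, limma adjusted p = 0.711). Pmaip1 and Hipk2 were 2 of the 35 genes tested from both lists, and 3.97% of all genes tested did not overlap either. Cdkn2a, whose locus encodes the Mdm2 inhibitor Arf, was listed at 0 in 7 libraries and had 1 read in DekCon 2, so it was not tested.

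Markers of other cell types also varied between these libraries. The summed value of 12 B lymphoid and plasma cell markers was 621 to 1411 in DekCon and 4689 to 5509 in DekTg, with 2 of 12 past the threshold (Igkc and Jchain). The log2 differences of the 12 had a median of 0.52 and ran from -0.35 to 3.82, with 11 of the 12 above 0. The 9 erythroid markers summed to 177 to 635 and 537 to 705, with a median of 1.13 and 3 of 9 past the threshold, all globin genes (Hba-a1, Hba-a2 and Hbb-bs). Of the 9, 7 lay above 0 and 2 below, with log2 differences from -1.06 to 3.57. The 6 megakaryocyte markers all lay below 0 (median -0.80, none past the threshold), with sums of 2625 to 9404 in DekCon and 2014 to 3350 in DekTg. An unadjusted limma p under 0.05 was reached by 5 B lymphoid and plasma cell, 6 erythroid and 4 megakaryocyte markers. In the same order, the groups did not overlap for 5, 4 and 2 of the markers. Of all genes tested, 6.93% reached that p, 3.97% did not overlap and 0.0347% passed the threshold. The 11 neutrophil and monocyte markers summed to 5182 to 12171 in DekCon and 3055 to 19205 in DekTg, none past the threshold. The 7 T and NK cell markers summed to 545 to 949 and 457 to 664, and the 7 macrophage and stroma markers to 216 to 376 and 277 to 412, with none past the threshold in either list. Stem cell markers (7 genes) summed to 1593 to 1863 in DekCon and 1394 to 1648 in DekTg, none of them past the threshold. An unadjusted limma p under 0.05 was reached by 2 neutrophil and monocyte markers and 1 T and NK cell marker. It was also reached by 2 macrophage and stroma markers and 2 stem cell markers. No marker was at 0 in every library, and Cd3d, a T cell marker, was at 0 in 2 libraries. Mitochondrial genes took 2.69 to 3.34% of the values in DekCon and 3.25 to 3.66% in DekTg. Of the 10 early response genes, which handling of cells can induce, 1 passed the threshold and 5 lay above 0, with a median of -0.02. That gene was Fos, named after its values were seen, at 29.2, 49.8, 42.3 and 29.9 in DekCon and 189.6, 322, 266 and 151 in DekTg (log2 difference 2.56, limma adjusted p = 2.7e-05), 3 of whose values are not whole multiples of a read. Jun was 375, 317, 271 and 417 in DekCon and 519, 153, 312 and 590.1 in DekTg. Ier2 ranged over 158 to 271 and 67.3 to 300.3, Zfp36 over 115 to 238 and 171 to 231, and Dusp1 over 97.6 to 257 and 119 to 206. The part of these in the values of the p53 genes was not tested.

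For 6 of the 30 genes an exon overlaps a gene on the opposite strand: Ddb2 with Acp2, Ei24 with Gm26787, Gadd45a with E230016M11Rik, Rchy1 with Thap6, Rrm2b with Gm49085 and Tigar with Platr31. Nothing states whether the counting used strand, so reads of these pairs cannot be told apart where they overlap.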

How the data were processed

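The deposited signal per gene and library, named FPKM in its table, behaves as read counts that the authors divided by 1 DESeq2 size factor per library: 99.99% of 417792 values were whole multiples of the library's step (tolerance 0.001 reads), and size factors recomputed from the recovered reads differed by at most 4.24e-05 (relative). The 25 others fall in 6 genes, none among the 30. The design had assumed FPKM; its test fits either. The submitters' processing notes name DESeq2, HTSeq, Cufflinks 2.1.1, Bowtie 0.12.9 and the build mm10; what each did, which annotation was used and whether strand counted are not given. The control columns spell the group name differently from the labels and were matched to DekCon.

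Genes with a value of 1 or more in 4 or more of the 8 libraries (37414 genes) were tested with limma 3.58.1 in R 4.3.3, a mean-variance trend, log2(value + 1) and no covariates, two-sided, and with Benjamini-Hochberg adjustment. Differences on this scale understate changes of low genes. The test was run on simulated reads with independent libraries and the same spread setting for every gene, without the genes of fewest reads. These settings are simpler than the data, so the check does not show how the test performs on the p53 genes. Reads without molecular identifiers are not independent molecules. Coordinates and exon lengths are those of GENCODE M21. Tried as alternatives were other scalings, filters, pseudocounts and variance options, edgeR 4.0.16 and DESeq2 1.42.0 on recovered reads, each library left out, and a replicate block.

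The 30 genes and all lists were chosen with earlier results of these data known. Values of every library are given for Trp53, Mdm2, Mdm4, any of the 30 past the threshold or with groups that do not overlap, and, in each role, the genes with the smallest p and the highest mean value.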

Additional observations from a re-analysis of the deposited data

Results flagged for a closer look

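Each of the 30 genes was looked at in each group of 4 libraries, 60 groups in all, for a library that stood far from the other 3. This held in 6 of the 60, with a gap to the nearest library of 0.83 to 0.91 of the range of the 4. The expected rate of about 1 in 20 is nominal. The share over all genes of the table was not computed, so 6 of 60 is not a result about the p53 genes. Trp53 was 1246 in DekCon 2, against 919 in the next highest DekCon library. Ppm1d was 50.9 in DekCon 3, with the next lowest at 84.1, and 84.0 in DekTg 4, with the next highest at 63.5. Psrc1 was 80.8 in DekTg 1 and 66.0 in the next library. Polk was 174 in DekCon 4 and 146 in the next. Perp was 3.15 in DekTg 4, with the next lowest at 11.6.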

How the results depend on the processing

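None of the 30 genes passed the threshold under any of the 24 alternatives; the smallest adjusted p was 0.474 (limma, Btg2, without DekTg replicate 2). The sign of the log2 difference changed under at least 1 alternative for 14 of the 30 and under none for the other 16, of which Perp had no value with the filter at 10; the cause was not tested. Leaving out each library gave -0.35 to 0.65 for Phlda3, -0.12 to 0.013 for Mdm4, -0.16 to 0.015 for Rrm2b, -0.096 to 0.037 for Zmat3, -0.026 to 0.073 for Mdm2, -0.045 to 0.079 for Sesn2, -0.16 to 0.34 for Tigar, -0.0099 to 0.10 for Ccng1, -0.0086 to 0.19 for Polk, -0.043 to 0.14 for Ei24, -0.21 to 0.0094 for Eda2r, -0.34 to 0.0055 for Ddb2 and -0.29 to 0.030 for Fas. Quantile normalization gave 0.11 for Mdm4, 0.0079 for Rrm2b and 0.079 for Zmat3. Library quality weights gave 0.29 for Phlda3, 0.060 for Zmat3, -0.0063 for Mdm2 and -0.0090 for Sesn1. Averaging libraries 1 and 4 gave 0.046 for Ddb2 and -0.012 for Sesn2. Phlda3 was 0.082 with a pseudocount of 5, 0.35 by edgeR and 0.34 by DESeq2, with and without independent filtering. The log2 difference of Trp53 stayed between -0.22 and -0.03. The median of the 30 genes was -0.0093 with quantile normalization and -0.10 to -0.01 over all alternatives. Genes past the threshold in the whole table numbered 13, but 4 without the variance trend, 8 when the 6 genes with values other than whole reads were left out, and 13 to 22 with 1 library left out (22 without DekTg replicate 2). Genes of the 30 whose groups did not overlap numbered 0 to 3 with 1 library left out, most without DekTg replicate 2 (Btg2, Dram1 and Tnfrsf10b, with 9.28% of all genes), and 2 with libraries 1 and 4 averaged (Pidd1 and Perp, with 10.3% of all genes).

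The replicate numbers are shared by the groups, but deviations of same-numbered libraries correlated at 0.0064 to 0.065 only, so the numbers were not taken as pairs. With the replicate block 15 genes of the table passed the threshold, none of the 30 among them. Depth limits the 9 genes with a mean under 50 most.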
